A study of Mus musculus with 27 samples.

Results

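The genes described here copy DNA in S phase: 45 mouse genes, from the proteins that mark replication origins to the enzymes that supply nucleotides and restore DNA methylation. Their members were named by gene symbol, and a probe set was taken where its annotation gave 1 of these genes and no other. This gave 81 of 36701 probe sets and 45 of 15964 named genes. Each gene was followed through 3 stages of mouse limb bud cells that form cartilage in culture: multipotential mesenchymal cells, chondroprogenitors taken at day 1 and chondroblasts taken at day 3. Cells of every stage were isolated from the subridge area of the limb, beneath its distal ridge. The labels give no genotype, strain, embryo age, agent or dose, and name fibroblasts as the contaminating cell type in all 3 groups. Each group held 3 RNA samples, numbered 1, 3 and 4, and each RNA was hybridised to 3 Affymetrix array types (A, B and C), for 27 arrays. Nothing in the labels says that samples came from separate cultures or animals, so a p-value here sets a change against the spread among the 9 RNA samples, and that spread may be technical.

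Before S phase, the origin recognition complex (ORC) with Cdc6 and Cdt1 loads the ring-shaped MCM helicase onto DNA, a step called licensing, which geminin (Gmnn) blocks once replication has begun. Cdc7 kinase and Cdc45 then start the helicase, primase and the DNA polymerases build the new strands on the sliding clamp Pcna, and Fen1 and Lig1 join the fragments. Many of these genes are transcribed late in G1 by E2F factors, and limb mesenchyme cells divide actively before they condense and become cartilage.

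Markers of cartilage were read first, as a check of the stages. The summed signal of 15 cartilage genes was 4981 to 5948 in mesenchymal samples, 30141 to 34916 at day 1 and 91660 to 105260 at day 3. Signals here are MAS5 intensities, rescaled so that the trimmed mean of each array is 500, and a level of one probe set cannot be set against that of another. Differences are on the log2 scale of signal plus a pseudocount of 50, which sets their size where a group reads below 200. Signal for 18S ribosomal RNA was 19957 to 33283 in 1 sample per stage (number 1 of the mesenchymal cells, number 4 of both later stages) and 1624 to 5634 in the other 6, and counts without those 3 samples are given below. Of the 81 probe sets, 64 had a mean of at least 200 in 1 or more groups and were tested, 44 on type A, 2 on B and 18 on C. The other 17 (12, 1 and 4) reached group means of at most 43.8 to 190. They left Orc2 and Tyms with no tested probe set, so 43 genes were tested. A further 2 probe sets were annotated to Tyms together with another gene and were not counted as members.

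Promoter sequence is shown for 4 members that fell by day 3 and carry an E2F octamer upstream of the start, so that a reader can see the letters the counts below refer to. Each line gives the 250 bases before the RefSeq start on GRCm38.p6, read 5′ to 3′ on the strand of the gene, with E2F octamers in capitals. The Mcm5 window lies at chr8:75109259-75109508 on the plus strand, that of Mcm7 at chr5:138171884-138172133 on the minus strand, that of Cdc6 at chr11:98907901-98908150 on the plus strand and that of Uhrf1 at chr17:56304063-56304312 on the plus strand. Uhrf1 and Mcm7 have a second annotated start, whose 250 bases hold no such octamer.
Mcm5: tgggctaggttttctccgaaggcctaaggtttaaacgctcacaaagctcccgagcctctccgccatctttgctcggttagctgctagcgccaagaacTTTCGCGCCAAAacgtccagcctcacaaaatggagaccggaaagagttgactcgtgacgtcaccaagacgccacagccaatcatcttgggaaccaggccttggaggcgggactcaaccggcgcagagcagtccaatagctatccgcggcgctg
Mcm7: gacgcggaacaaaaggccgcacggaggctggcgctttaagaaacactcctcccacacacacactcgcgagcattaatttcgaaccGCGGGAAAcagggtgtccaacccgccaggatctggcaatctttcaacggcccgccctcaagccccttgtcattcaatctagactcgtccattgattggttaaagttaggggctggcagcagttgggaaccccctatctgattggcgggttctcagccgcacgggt
Cdc6: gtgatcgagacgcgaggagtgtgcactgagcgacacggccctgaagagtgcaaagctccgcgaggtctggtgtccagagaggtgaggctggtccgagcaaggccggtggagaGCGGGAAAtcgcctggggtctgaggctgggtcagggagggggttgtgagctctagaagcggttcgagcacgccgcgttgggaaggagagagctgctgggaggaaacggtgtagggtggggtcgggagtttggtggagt
Uhrf1: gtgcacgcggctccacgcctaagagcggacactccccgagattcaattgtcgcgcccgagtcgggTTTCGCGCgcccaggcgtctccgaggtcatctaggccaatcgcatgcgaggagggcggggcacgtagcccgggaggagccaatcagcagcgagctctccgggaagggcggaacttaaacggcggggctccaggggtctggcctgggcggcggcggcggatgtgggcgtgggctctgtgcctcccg
The octamers searched were TTTCCCGC, TTTGGCGC, TTTCGCGC and TTTGCCGC, on both strands. In Mcm5, 2 of them overlap and begin at positions -153 and -149. The single upstream match begins at -165 in Mcm7, at -138 in Cdc6 and at -185 in Uhrf1.

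Over windows of 300 bases (250 before the start and 50 after it), 39 of the 45 members had a RefSeq window, and 13 of these 39 genes (33.3%) held an E2F octamer. The share was 2.61% among all 27025 genes with a window and 4.46% among the 9793 of them tested on the arrays. An octamer was found in 9 of 16 members that fell by day 3 and in 4 of 21 members that were tested and did not pass the threshold. For comparison, 2 of 34 genes of a mitosis list held one. The cell cycle element TTTGAA, known from promoters of mitotic genes and searched on both strands, was held by 25 of 34 mitosis genes (73.5%). It was held by 6 of 39 replication genes (15.4%), a share near the 14.6% of genes tested on the arrays and below the 20.2% of all genes with a window. CCAAT, searched on both strands, was found in 24 of 39 members (61.5%) and in 41.1% of all genes. It was held by 12 of 16 members that fell by day 3 and 11 of 21 not called, and TTTGAA by 4 of 16 and 2 of 21. A higher share among members that fell was thus not particular to the E2F octamer, and no such difference was tested. A match is a run of letters in a window and says nothing of whether a factor binds there.

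Between mesenchymal cells and day 3 the signal of replication genes fell. Of 64 tested member probe sets, 21 were lower and 0 higher (limma, adjusted p under 0.05), where 4.03% of all 23551 probe sets were called lower and 6.55% higher, and 30 of the 64 (46.9%) had an unadjusted p under 0.05 in either direction, beside 24.5% of all. The 21 stand for 18 of the 43 genes (4.81% of all genes fell, by 1 probe set each). Their log2 differences ran from -0.60 to -1.97, and the mesenchymal and day 3 samples did not overlap in any of the 21. The value of -1.97 was for an Mcm5 probe set that read below 200 at day 3 and passed the filter through mesenchymal cells alone. Day 3 lay wholly below mesenchymal cells in 29 of the 64, beside 14.3% of all. On type A, with 44 of the 64, the shares over all probe sets were higher. There 27 of 44 (61.4%) had an unadjusted p under 0.05, beside 38.5% of type A. Day 3 lay wholly below in 28 of 44, beside 1534 of 7131. The median log2 difference over the 64 was -0.57, beside -0.08 over all probe sets tested, and 52 of the 64 lay below 0, beside 55.4% of all. The order in which arrays were scanned was tied to the stages, and with scan batch as a block 2 of the 21 calls were left, as given in full after the gene values.

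**Figure D1:**
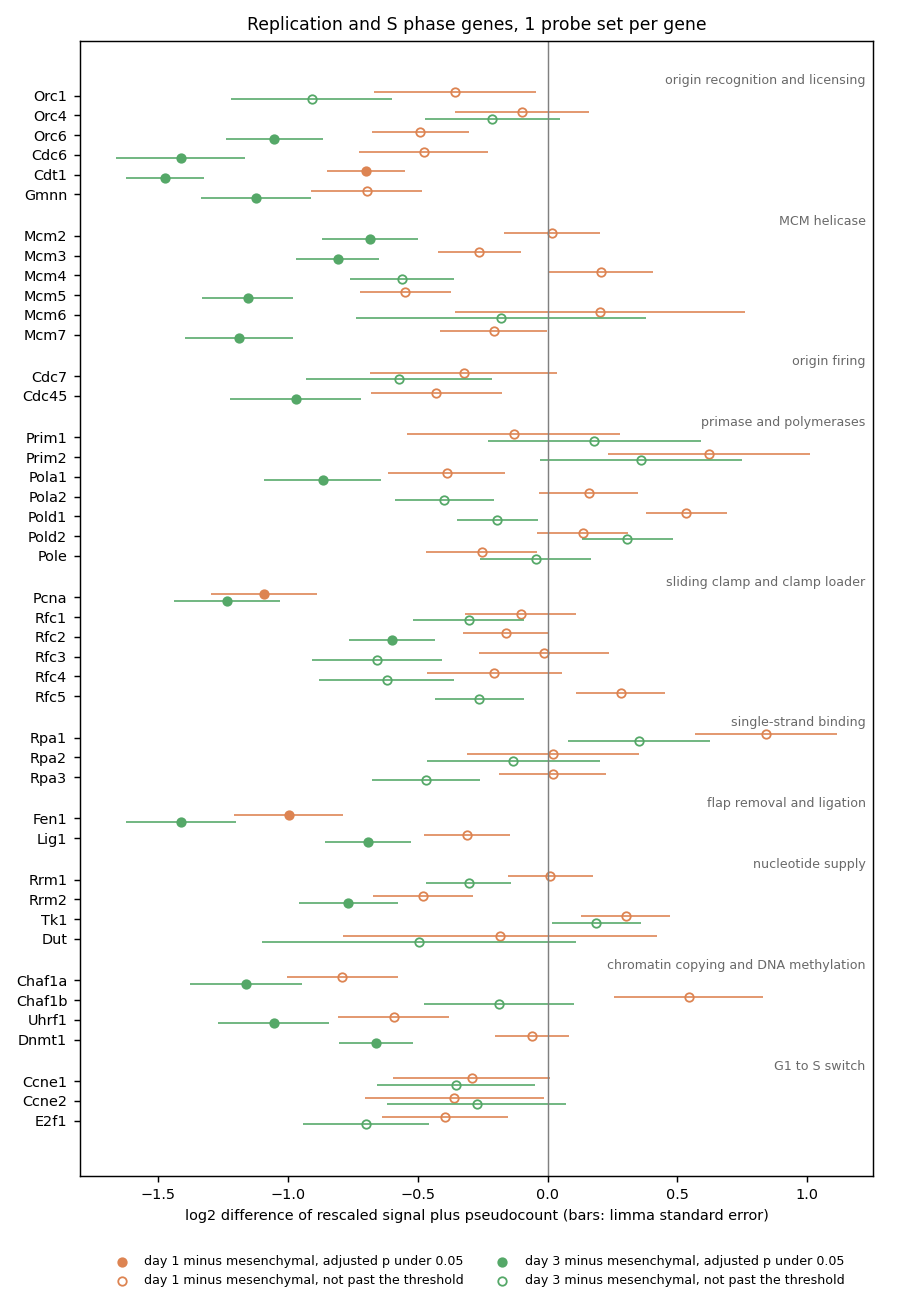
Log2 difference from mesenchymal cells at day 1 (orange) and day 3 (green) for the 43 tested genes, 1 probe set each, grouped by role; bars are limma standard errors, n = 3 samples per group, and filled points passed an adjusted p of 0.05. Most licensing genes, MCM subunits and chromatin genes, with Pcna and Fen1, lie well left of 0 at day 3. Orc4, Mcm6, Chaf1b and Pold1 lie near 0 (-0.21 to -0.18), and Pold2, Rpa1 and Tk1 lie to its right.

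The licensing genes held the largest called fall among the genes shown by 1 probe set each, that of Cdt1, the loader of the MCM ring. Cdt1 (94024_at) read 2591, 2614 and 3236 in mesenchymal replicates 1, 3 and 4, then 1725, 1649 and 1740 at day 1, and 1015, 973 and 945 at day 3. Its 3 groups formed 3 separate steps with no overlap. The log2 change was -0.70 ± 0.15 (SE, n = 3 per group) to day 1 (adjusted p = 0.018), -0.77 ± 0.15 from day 1 to day 3 (adjusted p = 0.022) and -1.47 ± 0.15 over both (adjusted p = 4.9e-05). A further type A probe set of Cdt1 (161787_f_at) fell by 1.29 over both steps (adjusted p = 0.00073), and 168772_at on type C, with a difference of -1.24 ± 0.66, did not pass (adjusted p = 0.27).

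Cdc6, the ATPase that recruits Cdt1 to the origin complex, read 1101, 836 and 1123 in mesenchymal cells, 762, 738 and 644 at day 1, and 447, 428 and 217 at day 3. Each group lay wholly below the one before it. The difference at day 3 was -1.41 ± 0.25 (adjusted p = 0.0031). Orc6, a subunit of the origin recognition complex, went from 2059, 2424 and 2269 through 1809, 1572 and 1401 to 1188, 1219 and 815, a change of -1.05 ± 0.19 (adjusted p = 0.0031). Gmnn, the inhibitor of Cdt1, went from 649, 473 and 663 through 367, 339 and 328 to 262, 249 and 221, a change of -1.12 ± 0.21 (adjusted p = 0.005). With Cdt1, these made 4 of the 6 tested genes of this role that fell. Orc1, the largest ORC subunit, had a difference of -0.91 ± 0.31 and no call (adjusted p = 0.088), with day 3 samples (95 to 184) below all mesenchymal ones (211 to 365). None of the 3 Orc4 probe sets was called, with differences of -0.21, -0.14 and 0.62.

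**Figure D2:**
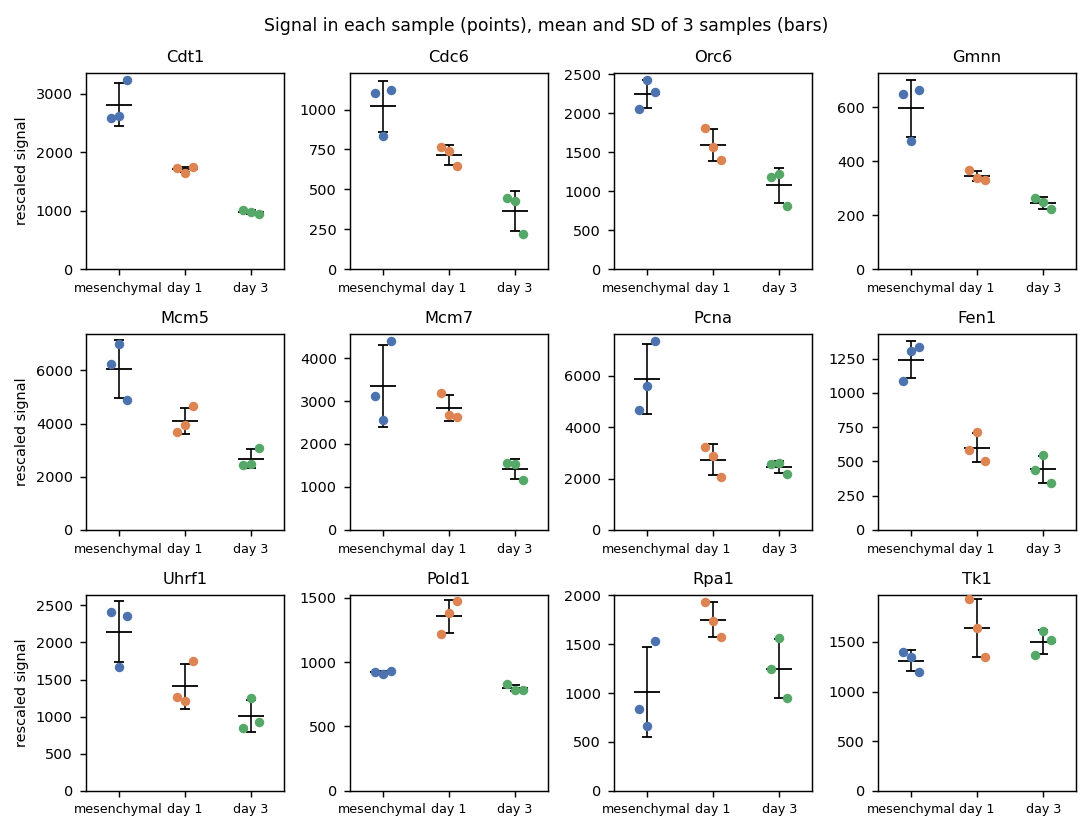
Rescaled signal of 12 members in each of the 9 samples (points, left to right replicates 1, 3 and 4) with the mean and SD of each group of 3; axes start at 0 and differ between panels. Cdt1, Cdc6, Orc6 and Gmnn step down at each stage, Pcna and Fen1 drop mainly by day 1, Mcm7 drops by day 3, and Pold1 is highest at day 1.

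Of the 6 subunits of the MCM helicase, which unwinds DNA ahead of the polymerases, Mcm2, Mcm3, Mcm5 and Mcm7 fell by day 3. Mcm5 (100156_at) read 6253, 7004 and 4881 in mesenchymal cells, 3676, 3956 and 4652 at day 1, and 2456, 2478 and 3088 at day 3. No sample of one stage overlapped another. The change at day 3 was -1.15 ± 0.17 (adjusted p = 0.001). Mcm7 read 3110, 2550 and 4396, then 3191, 2678 and 2635, then 1565, 1544 and 1151. Its mesenchymal and day 1 samples overlapped and the day 3 samples lay below both, with -0.21 ± 0.21 to day 1 (adjusted p = 0.65) and -0.98 ± 0.21 from day 1 to day 3 (adjusted p = 0.035). Mcm2 likewise overlapped between mesenchymal cells (1633, 2003 and 2140) and day 1 (2239, 1617 and 2006) and lay lower at day 3 (1150, 1009 and 1386), a change of -0.68 ± 0.18 from mesenchymal cells (adjusted p = 0.034). For Mcm3 both type A probe sets fell, by 0.81 (160496_s_at, adjusted p = 0.0068) and 0.66 (100062_at, adjusted p = 0.048). Mcm4 read 1697, 1799 and 2795, then 2562, 2634 and 1967, then 1414, 1354 and 1349, so that day 3 lay below both earlier stages, but its difference from mesenchymal cells of -0.56 ± 0.20 did not pass (adjusted p = 0.10). Mcm6 had tested probe sets on type C only, with differences of -0.18 ± 0.56 (169271_r_at) and -0.81 ± 0.59 (169109_at), neither called, and the latter was 0.60 with scan batch as a block.

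Cdc45, the helicase cofactor loaded when an origin fires, read 1010, 1360 and 822 in mesenchymal cells, 685, 634 and 1015 at day 1 and 421, 458 and 676 at day 3. Day 3 lay below all mesenchymal samples, with a change of -0.97 ± 0.25 (102403_at, adjusted p = 0.028). The kinase gene Cdc7 gave -0.57 ± 0.36 (adjusted p = 0.36).

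Few polymerase genes passed the threshold. Pola1, the catalytic subunit of polymerase alpha, which starts each new strand with primase, fell by 0.87 ± 0.22 (adjusted p = 0.028), from 532, 427 and 498 in mesenchymal cells to 199, 308 and 233 at day 3. Among the 9 probe sets of primase and polymerases it was the sole call at day 3 against mesenchymal cells, and their median difference was -0.05. Pola2 differed by -0.40 ± 0.19 (98006_at, adjusted p = 0.23) and -0.69 ± 0.39 (161739_r_at, adjusted p = 0.31). In 98006_at all day 3 samples lay below the mesenchymal ones. Pold2, the accessory subunit of polymerase delta, read 1215, 1325 and 1323 in mesenchymal cells and 1493, 1391 and 1985 at day 3, all higher, with a difference of 0.31 ± 0.17 that did not pass (adjusted p = 0.31). Pole, the leading strand polymerase, differed by -0.05 ± 0.21 (adjusted p = 0.92) and the 2 primase subunits Prim1 and Prim2 by 0.18 ± 0.41 and 0.36 ± 0.39.

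Pold1, the catalytic subunit of polymerase delta, had a course of its own. It read 925, 903 and 929 in mesenchymal cells, 1220, 1378 and 1474 at day 1, and 827, 781 and 785 at day 3. The day 1 samples lay above all others. Its difference to day 1 was 0.53 ± 0.15 (adjusted p = 0.076), and it fell by 0.73 ± 0.15 from day 1 to day 3 (adjusted p = 0.037). Day 1 against the mean of the other stages gave 0.63 (adjusted p = 0.048), the single call among the 64 members in that test, where 1.09% of all probe sets were called. The call was lost when any 1 of the 9 samples was left out.

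Pcna, the clamp that holds the polymerases on DNA, dropped early. It read 4685, 5613 and 7367 in mesenchymal cells, 3238, 2887 and 2074 at day 1, and 2557, 2594 and 2175 at day 3. The day 1 and day 3 samples overlapped, and all lay below the mesenchymal ones. The change was -1.09 ± 0.20 to day 1 (adjusted p = 0.0086) and -0.14 ± 0.20 after it (adjusted p = 0.89). Of the 5 subunits of the clamp loader, Rfc2 fell by day 3 (-0.60 ± 0.17, adjusted p = 0.039), and the other four had differences of -0.66 (Rfc3), -0.62 (Rfc4), -0.30 (Rfc1) and -0.26 (Rfc5, 95612_at) without a call. Fen1, the nuclease that trims the flaps between fragments, resembled Pcna: 1086, 1303 and 1335 in mesenchymal cells, 581, 713 and 506 at day 1, and 437, 545 and 341 at day 3. Day 1 and day 3 overlapped here too, with -1.0 ± 0.21 to day 1 (adjusted p = 0.017) and -1.41 ± 0.21 to day 3 (adjusted p = 0.00096). Lig1, the ligase that seals the nicks, fell by 0.69 ± 0.17 by day 3 (adjusted p = 0.019), with readings of 1165, 1140 and 1310 before and 676, 687 and 820 after.

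The single-strand binding protein RPA, which coats unwound DNA in replication and in repair, had 0 of 5 probe sets called (limma) and 1 with an unadjusted p under 0.05. Rpa1 (95427_at) read 841, 660 and 1534 in mesenchymal cells, 1934, 1741 and 1575 at day 1, and 1250, 1558 and 945 at day 3. Day 1 lay above both other stages, and the difference of 0.84 ± 0.27 did not pass (adjusted p = 0.11). Rpa3 and Rpa2 (98943_at) differed by -0.47 ± 0.21 and -0.13 ± 0.33 at day 3.

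Nucleotide supply was divided between its genes. Rrm2, the regulated subunit of ribonucleotide reductase, fell from 2887, 2248 and 3680 in mesenchymal cells to 1837, 1463 and 1743 at day 3 (-0.77 ± 0.19, adjusted p = 0.023). Its partner Rrm1 differed by -0.30 ± 0.16 (100612_at, adjusted p = 0.29), with overlapping groups. The type C probe set of Rrm1, 170351_at, lay the other way, at 0.86 ± 0.63 (adjusted p = 0.43), also with overlapping groups. Tk1, the salvage enzyme thymidine kinase, read 1400, 1344 and 1195, then 1936, 1645 and 1346, then 1371, 1613 and 1523, a difference of 0.19 ± 0.17 at day 3 (96081_at, adjusted p = 0.55). All 4 tested Tk1 probe sets had day 3 differences above 0, from 0.19 to 0.58, and none was called.

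Of 4 genes that copy chromatin and its methylation behind the fork, 3 fell by day 3 (3 of 5 probe sets). Chaf1a, the large subunit of chromatin assembly factor 1, read 1145, 758 and 814 in mesenchymal cells, 491, 448 and 550 at day 1, and 316, 360 and 447 at day 3 (-1.16 ± 0.22, adjusted p = 0.0043). Uhrf1, which brings the maintenance methyltransferase to new DNA, went from 2405, 1676 and 2355 to 847, 1251 and 928 at day 3 (99564_at, -1.05 ± 0.21, adjusted p = 0.0076). Dnmt1, that methyltransferase, read 3032, 2918 and 2969, then 2675, 2755 and 3145, then 1753, 1787 and 2060, with an overlap of the first 2 stages (101445_at, -0.66 ± 0.14 over both steps, adjusted p = 0.011). The partner subunit Chaf1b differed by -0.19 ± 0.29 (adjusted p = 0.74).

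The switch genes that open S phase gave 0 of 4 probe sets called (limma) and 1 with an unadjusted p under 0.05. Transcription factor E2f1 was near the filter, at 372, 359 and 286 in mesenchymal cells and 227, 179 and 164 at day 3, with groups apart and a difference of -0.70 ± 0.24 (161427_f_at, adjusted p = 0.093). Cyclins E1 and E2 (Ccne1 103034_at and Ccne2) differed by -0.35 ± 0.30 and -0.27 ± 0.34, with overlapping groups. The type C probe set of Ccne1, 171290_r_at, lay the other way, at 0.60 ± 0.52 (adjusted p = 0.53), also with overlapping groups.

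**Figure D3:**
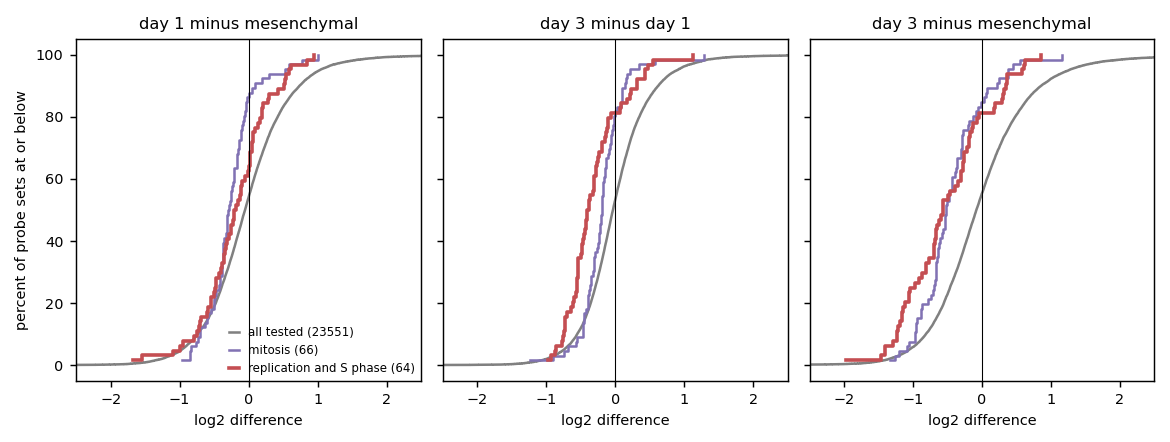
Percent of probe sets at or below each log2 difference in the 3 comparisons, for the 64 member probe sets (red), 66 of the mitosis list (purple) and all 23551 tested (grey); the x axis ends at 2.5 either side. In the comparison of day 3 with mesenchymal cells the red curve lies left of the grey one, with medians of -0.57 and -0.08.

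Taken by step, 4 member probe sets fell between mesenchymal cells and day 1 (Cdt1 with 2, Pcna and Fen1) and 0 rose, where 1.19% of all probe sets fell and 3.6% rose. An unadjusted p under 0.05 was found for 15 of the 64 (23.4%), beside 18.6% of all (limma). On type A it was 13 of 44 (29.5%), beside 25.6% of type A, so for this step the members lay near the share of all. From day 1 to day 3, 3 fell (Cdt1, Mcm7 and Pold1) and 0 rose, where 0.484% of all fell and 1.13% rose. An unadjusted p under 0.05 was found for 21 of the 64 (32.8%), beside 10.8% of all, and on type A for 19 of 44 (43.2%), beside 15.5%. Median member differences were -0.19 and -0.40 for these steps, beside -0.05 and -0.03 over all probe sets. Of the 21 that fell over both steps together, 19 had both steps below 0, and the second step was the larger in 13. The moderated F test over the 3 groups called 16 of 64 (25.0%), beside 8.95% of all.

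Both step counts were small, were 0 with scan batch as a block, and moved with single samples. Pcna to day 1 was -0.66 in that fit (adjusted p = 0.23). For mesenchymal cells to day 1 the count was 1 without day 1 replicate 1, 2 without day 1 replicate 3, day 1 replicate 4 or mesenchymal replicate 3, and 7 without mesenchymal replicate 4, of which 5 were lower and Prim2 and Rpa1 were higher. For day 1 to day 3 it was 0 without any 1 of the 6 samples of those stages. Samples of the same number at day 1 and day 3 correlated weakly in their deviations from group means (0.12 to 0.27). Mesenchymal replicate 1 and day 3 replicate 4, which differ in number, gave 0.24. With the number as a block in a fit of day 1 and day 3 alone, a setting chosen after seeing the data, 10 member probe sets fell, where 2.02% of all did. The same block in a fit of all 9 samples gave 0 for this step. In the fit of day 1 and day 3 alone, the 10 were Cdt1, Mcm7, Pold1, Orc6, Cdc6, Mcm2, Mcm3, Mcm4, Mcm5 and Dnmt1. Blocked changes there were -0.77 for Mcm4 (limma, adjusted p = 0.0058), -0.61 for Mcm5 (adjusted p = 0.0075) and -0.60 for Dnmt1 (adjusted p = 0.0095).

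**Figure D4:**
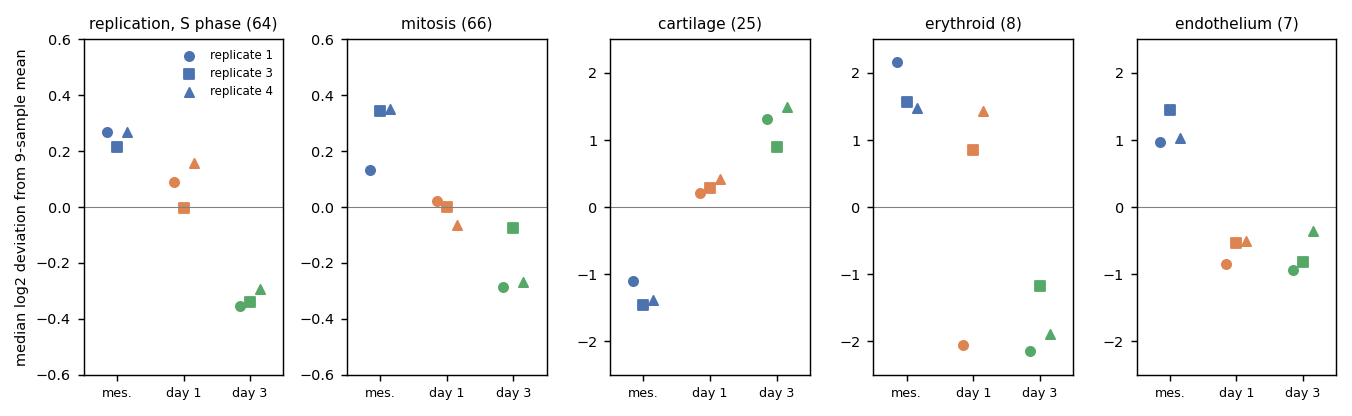
Median log2 deviation from the 9-sample mean of each probe set, by sample, for 5 gene lists (number of tested probe sets in brackets); symbols mark replicates 1, 3 and 4, and the first 2 panels have a finer scale than the other 3. Replication genes lie at 0.22 to 0.27 in mesenchymal cells, 0.00 to 0.16 at day 1 and -0.36 to -0.29 at day 3.

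The members' median deviation in each sample was 0.27, 0.22 and 0.27 in mesenchymal replicates 1, 3 and 4, then 0.09, -0.00 and 0.16, then -0.36, -0.34 and -0.29. The 3 stages did not overlap. Nor did they in the median over all 23551 probe sets tested, at 0.029 to 0.052, 0.012 to 0.025 and -0.019 to 0.0011. Medians of the mitosis list were also apart by stage. Here the RNA is of mixed cells, so fewer dividing cells and less RNA per cell cannot be told apart. Markers of other cell types moved over the same stages: 7 of 8 erythroid probe sets fell by day 3, with a summed signal of 116720 to 254910 in mesenchymal cells, 9373 to 117220 at day 1 and 6800 to 19962 at day 3. In day 1 replicate 1 the erythroid median was -2.06, against 0.86 and 1.43 in the other day 1 samples. Endothelial markers fell in 5 of 7 probe sets, from summed signals of 2443 to 2777 to 417 to 688 at day 1 and 487 to 745 at day 3. Fibroblast markers rose in 9 of 16 and fell in 2, from 10457 to 11663 and 10696 to 11175 to 26001 to 27811. Macrophage markers rose in 1 of 5 probe sets and epithelial markers in 1 of 6, and the summed signals of both overlapped between mesenchymal cells and day 3. The part of these cells in the fall of the replication genes was not tested.

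The scan order of the arrays was tied to the stages. On type A the chip lots divided the arrays in the same way as the scan batches, so lot and scan batch cannot be told apart there. On type B the day 3 arrays filled a scan batch of their own. There the block was a random effect for comparisons with day 3, which cannot separate batch from stage. The share of all probe sets given below for the block includes type B. On type A, which holds all 21 calls (21 of 44 probe sets, where 7.94% of type A fell), no scan batch held both mesenchymal and day 3 samples. With scan batch as a block, 2 of the 21 calls were left, Cdt1 (94024_at, -1.34, adjusted p = 0.017) and Mcm5 (100156_at, -1.52, adjusted p = 0.014), where 1.38% of all probe sets were called lower. All 21 differences stayed below 0 in that fit, and their median went from -1.05 to -0.80. On type A, mesenchymal replicate 4 stood alone in its scan batch and so did not enter these blocked differences. The mesenchymal and day 3 arrays were linked only through day 1 replicate 1, whose error enters all 21. Their shared sign is thus not 21 separate results. Within single batches of type A, the median member difference was -0.21 from mesenchymal cells to day 1 (2 samples against 1, 27 of 44 below 0, beside 51.6% of all) and -0.43 from day 1 to day 3 (2 against 3, 39 of 44 below 0, beside 57.6% of all). On type C, where 1 batch held 1 mesenchymal and 3 day 3 samples, the within-batch median over 18 probe sets was 0.03, beside -0.16 over all samples, and 0 of the 18 were called over all samples (limma, 2 with an unadjusted p under 0.05), where 1.02% of type C fell. Without day 3 replicate 1, 12 of 64 tested were called. Without the 3 samples high in 18S signal, the calls over both steps, to day 1 and after day 1 were 18, 3 and 0 of 60 tested.

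**Figure D5:**
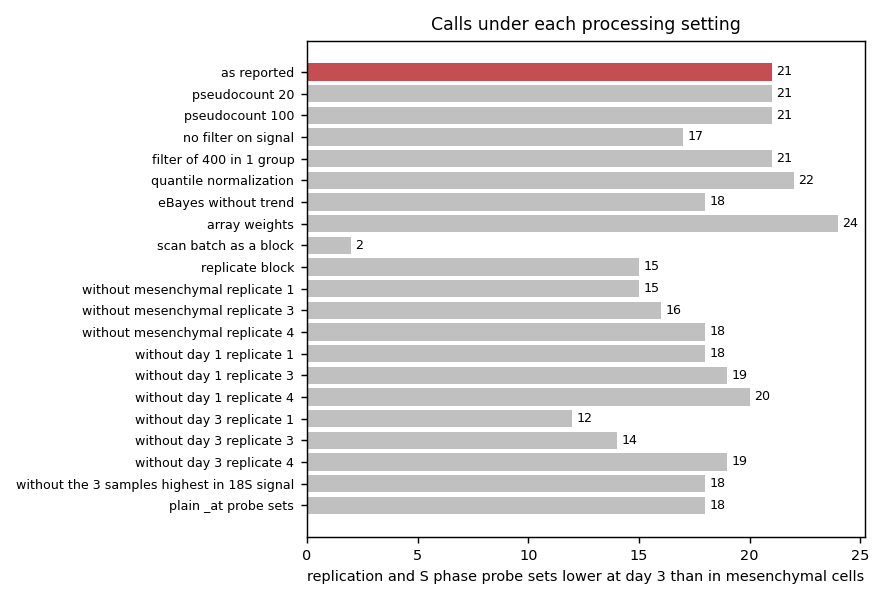
Number of member probe sets lower at day 3 than in mesenchymal cells (adjusted p under 0.05) under each processing setting, as reported in red. Leaving out 1 sample gave 12 to 20 calls, and scan batch as a block gave 2.

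Other genes of the same pathway were read from 3 further lists. At day 3 against mesenchymal cells 4.03% of all probe sets were lower and 6.55% higher. No result with scan batch as a block is given for these lists or for mitosis. Over all probe sets that block took the lower calls from 949 to 325. Of 46 probe sets of other replication factors, 6 were lower and 2 higher at day 3 than in mesenchymal cells, with a median of -0.42. Those lower were Pold3, a subunit of polymerase delta (-0.83, adjusted p = 0.012), both Pole3 probe sets, a histone-fold subunit of polymerase epsilon (-0.71 and -0.84), Ticrr, which helps load Cdc45 (-1.67), and both Clspn probe sets, of the fork protein claspin (-0.85 and -1.28). Those higher were Pold4 (1.33, adjusted p = 0.046) and Orc3 (1.52, adjusted p = 0.044). Of 18 probe sets for other nucleotide and histone supply, 8 were lower and 0 higher, with a median of -0.57. An unadjusted p under 0.05 was found for 9 of the 18, beside 24.5% of all (limma). Lower were Dctpp1, a pyrophosphatase for dCTP (-0.92 and -1.08), Dck, deoxycytidine kinase (-1.16), Dtymk, thymidylate kinase (-0.95), Shmt1 of the folate cycle (-0.99), the histone chaperones Asf1a (-0.81) and Nasp (-1.22), and Hells, a chromatin remodeller (-1.31).

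Among 43 probe sets for regulators of entry into S phase, 5 were lower and 3 higher at day 3 than in mesenchymal cells. Of all probe sets 4.03% were lower and 6.55% higher. The median over the 43 was -0.24. The 5 lower stand for 4 genes, of which E2f7 alone is described here, while all 3 higher are. E2f7, a repressor in the E2F family, read 1821, 2033 and 1981 in mesenchymal cells, 1258, 1338 and 1472 at day 1, and 618, 837 and 1090 at day 3 (-1.18 ± 0.21, adjusted p = 0.002). The CDK inhibitor gene Cdkn2b read 6 to 54 in the first 2 stages and 432, 524 and 351 at day 3. It passed the filter through its day 3 readings alone, so its call is counted but no p-value or fold is given. Cdkn1c, another CDK inhibitor gene, read 5642, 5272 and 8432 in mesenchymal cells, 32383, 31336 and 23394 at day 1, and 20562, 21832 and 20932 at day 3 (2.18 ± 0.20 to day 1, adjusted p = 4.1e-05, and 1.73 ± 0.20 to day 3, adjusted p = 0.00011). The remaining probe set higher at day 3 was 1 of Cdkn1a, also a CDK inhibitor gene (1.5 ± 0.27, adjusted p = 0.0035). Counted by 1 probe set per gene, 4 of the 25 genes of this list were lower and 2 higher. Not all 3 of these inhibitor genes were thus higher by the probe set that shows the gene. Of 66 probe sets for mitosis, 13 were lower and 0 higher at day 3 (limma, adjusted p under 0.05), with a median of -0.52, and 2 were lower at day 1. These were Birc5, or survivin (-0.96, adjusted p = 0.013), and Smc4 of condensin (-0.85, adjusted p = 0.028).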

How the data were processed

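Total RNA from 9 samples was measured on 27 arrays of 3 types. The deposited values are 1 intensity (MAS5 signal, linear) per probe set, made with MAS5 per the submitters' processing notes; its version is not given in the sources used here. As deposited, intensities had a 2% trimmed mean of 1500 on every array. Signals were rescaled per array to 500 for that mean, log2 of signal plus a pseudocount of 50 was taken, and probe sets with a mean of at least 200 in 1 group were kept. The 23551 kept were fitted in R 4.3.3 with limma 3.58.1 (lmFit, eBayes with trend; group means; 1 fit of 9 samples per array type), with Benjamini-Hochberg adjustment over all types together and a threshold of 0.05. The number of arrays limits the precision, and 36.8% to 52.4% of probe sets per array read below 200. A gene is shown by its type A probe set before B before C, then by the highest mean signal. Steps were tested on simulated data.

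Names came from GEO's platform annotation, updated by Entrez identifier to GRCm38.p6; of 36701 probe sets 29131 had 1 gene, 724 several and 6846 none. Promoters are RefSeq windows on GRCm38.p6, searched in Python 3.11.15 with pandas 2.3.3. Members, lists and named genes were chosen with earlier results of these data known. Genes named outside the members were called in their list, and not every called gene is named. Same-numbered day 1 and day 3 samples correlated in their deviations from group means by 0.12, 0.14 and 0.27 and were treated as paired in 1 alternative; mesenchymal samples (-0.21 to 0.05) were not. The alternatives tried were pseudocounts, filters, normalization, eBayes settings, blocks, probe set choice and samples left out. Scan batch was a fixed term on types A and C. On type B it was a random effect for comparisons with day 3, and the F test there took no block.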

Additional observations from a re-analysis of the deposited data

Results flagged for a closer look

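Pold1 (103057_at), the catalytic subunit of polymerase delta, drew attention because its step from mesenchymal cells to day 1 and its step from day 1 to day 3 ran in opposite directions and the test of that difference passed. Day 1 exceeded the mean of mesenchymal cells and day 3 by 0.63 on the log2 scale (limma, adjusted p = 0.048), with all 3 day 1 samples above all 6 others. The adjusted p reached 0.23 over the alternatives, and the call was kept in 4 of 10 of them and with 0 of 9 samples left out. Another Pold1 probe set, 165514_f_at on type C, read 688, 397 and 725, then 1170, 1497 and 910, then 733, 1028 and 600, and gave 0.76 in the same test (adjusted p = 0.38).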

How the results depend on the processing

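No member difference that passed the threshold, as reported or under an alternative, changed sign. Over all alternatives, 210 of 4824 member differences had the other sign, none of them called. Among those at day 3 against mesenchymal cells or given in the text, the scan block turned Mcm7 to day 1 to 0.18, Orc4 to 0.17, 0.10 and -0.045 (its 3 probe sets), Mcm6 169109_at to 0.60, Rfc1 to 0.13 and Rpa1 170055_at to 0.30. Without the 3 samples highest in 18S signal, Orc4 167861_at became 0.19 and Prim1 -0.0090. With 1 sample left out, the range crossed 0 for Dut (-0.82 to 0.12), Mcm5 167677_r_at (-0.20 to 0.14), Mcm6 169271_r_at (-0.79 to 0.23), Mcm7 to day 1 (-0.38 to 0.0039), Orc4 167861_at (-0.27 to 0.11), Pole (-0.30 to 0.13), Prim1 (-0.15 to 0.47), Rpa1 170055_at (-0.58 to 0.33) and Rpa2 98943_at (-0.48 to 0.13). Member probe sets called from mesenchymal cells to day 1 (4 as reported) were 2 without the eBayes trend, 10 with array weights (8 lower), 0 with scan batch as a block and 1 to 7 with 1 sample left out. From day 1 to day 3 (3) they were 0 without the trend, 11 with weights, 0 with the scan block, 0 with a replicate block over all 9 samples, 10 with the replicate block on day 1 and day 3 alone, 0 without the 3 samples highest in 18S signal and 0 to 4 with 1 left out. At day 3 against mesenchymal cells (21) they were 2 with the scan block, 15 with the replicate block and 12 to 20 with 1 left out; the block changed the calls given here and beside the results. Day 1 against the mean of the others (1) gave 3 with weights, 0 with no filter, quantile normalization, no trend, the scan block, the replicate block or without the 18S samples, and 0 to 1 with 1 left out. The F test (16) gave 25 with weights, 4 with the scan block and 10 to 17 with 1 left out. Called genes went from 3 to 5 in each step with means over probe sets.

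Over all probe sets, 1129 calls at day 1 became 2009 with weights, 615 with the scan block and 555 to 1241 with 1 left out; 380 from day 1 to day 3 became 1132 with weights, 1162 with the paired block and 167 to 441; 2492 at day 3 became 4247, 1141 with the scan block and 1457 to 2656; 256 for day 1 against the others became 161 without the trend, 751 with weights and 78 to 300; and 2108 in the F test became 3957, 1157 and 1339 to 2085. The member median from day 1 to day 3 (-0.40) was -0.30 with no filter. At day 3 against mesenchymal cells (-0.57) it was -0.64 and -0.50 with pseudocounts of 20 and 100, -0.43 with no filter, -0.61 with a filter of 400, -0.51 with quantile normalization, -0.52 with the scan block and -0.53 without the 18S samples. The causes were not tested. The replicate block on day 1 and day 3 and the restriction to plain probe sets were chosen after seeing the data. Signal near background limits the 17 probe sets below the filter.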

Other observations

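Where a gene had several tested probe sets, these did not always give 1 answer. For 5 of the 18 genes lower at day 3, another 7 probe sets were tested, of which 7 had differences below 0 and 3 were called. Mcm5 showed the widest spread of readings: its type C probe set 167677_r_at read 4417, 7089 and 4706 in mesenchymal cells, 2228, 3868 and 5410 at day 1, and 4693, 4793 and 5610 at day 3, a difference of -0.07 ± 0.30 (adjusted p = 0.91), where 100156_at on type A fell by 1.15. The remaining Mcm5 probe set, 162102_r_at, fell by 1.97 but from readings of 779, 382 and 151 to 20, 42 and 136, where the pseudocount weighs on the value. Cdc45 gave a like contrast, with -0.28 ± 0.40 for 171199_r_at on type C beside the fall of 0.97 on type A. Over all members, 18 of 46 probe sets of the plain design were called lower and 3 of 18 of the other designs.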
